A study of Mus musculus with 8 samples.

Results

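In limb buds of Y440X fetuses, GFP-positive cells were compared with the GFP-negative cells sorted from the same buds, to describe how far the identities of the sorted fractions are kept in the mutant. The comparison rests on 4 of the 8 RNA-seq libraries of the study and on all 739 distinct genes of its deposited tables, with nothing left out. Y440X fetuses were C57BL/6 mice at E13.5 with the genotype Sox9+/Y440X-IRES-EGFP, which have a premature stop codon and the green fluorescent reporter on the same Sox9 allele. WT fetuses were C57BL/6 mice at E13.5 with the genotype Sox9+/IRES-EGFP, with the reporter on an otherwise normal allele, as the study's design gives it. The headers of the deposited tables write this control as Sox9+/+. All fetuses thus carried 1 reporter allele and 1 untagged Sox9 allele, and the reporter reads transcription of the tagged allele only. The 4 groups were Y440X GFP-positive, Y440X GFP-negative, WT GFP-positive and WT GFP-negative cells. Each group had 1 forelimb library and 1 hindlimb library, which the study counts as its 2 replicates, and each library came from pooled buds. Pairs of values below are forelimb and then hindlimb.

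SOX9 is the transcription factor that commits limb mesenchyme to cartilage and switches on collagen II, aggrecan and the other matrix genes of chondrocytes, together with its partners SOX5 and SOX6. Loss of function of 1 copy in humans causes campomelic dysplasia, a disorder of bent long bones that the Y440X mouse models. A limb bud at this stage also holds surface ectoderm, blood vessels, tissue macrophages, blood cells, muscle precursors, nerve-associated glia and connective tissue mesenchyme, most of which do not transcribe Sox9.

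The 739 genes were listed by the authors because they differed between genotypes in at least 1 fraction of these same libraries, so they are not a sample of the transcriptome. Of them, 303 were listed for GFP-positive cells, 510 for GFP-negative cells and 74 for both. Effective library sizes were 45638000 and 45154000 reads for Y440X GFP-positive cells and 50853000 and 48082000 reads for Y440X GFP-negative cells. Levels are counts per 1000000 reads (CPM) of a library, not corrected for gene length, and a fold change is the log2 of GFP-positive over GFP-negative with its standard error (SE). A gene was called where the adjusted p of edgeR's quasi-likelihood test, with limb pool as a block, was under 0.05. These p-values rest on how far the fraction difference varied between the forelimb and hindlimb pools, so limb differences in that effect are part of the error. Each genotype had 1 pool per limb, so spread between fetuses or between pools of the same limb was not measured. This holds for the comparisons with WT too. That spread was mostly shared across genes, with 2 residual and 23.4 prior degrees of freedom from both genotypes. A gene's own disagreement between the Y440X limbs therefore had little weight in its p-value.

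Sox9 itself checks the sort and is no finding, since its tagged allele drives the reporter. It had 474 and 556 CPM in Y440X GFP-positive cells, against 17.9 and 21.9 CPM in Y440X GFP-negative cells. In WT it had 1067 and 920 CPM in GFP-positive cells, against 96.6 and 72.2 CPM in GFP-negative cells. The GFP-negative level was thus 3.79% and 3.93% of the GFP-positive level in Y440X, and 9.05% and 7.85% in WT. The log2 fold change was 4.70 ± 0.20 (SE) in Y440X and 3.57 ± 0.19 in WT, and the fractions of each genotype did not overlap.

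The cartilage markers separated the Y440X fractions in both limbs. Col2a1, which encodes the main collagen of cartilage, had 7751 and 5888 CPM in Y440X GFP-positive cells, against 146 and 164 CPM in Y440X GFP-negative cells, a log2 fold change of 5.45 ± 0.25 (adjusted p = 1.6e-14). Matn1, a matrilin of the cartilage matrix, had 349 and 189 CPM in Y440X GFP-positive cells, against 0.492 and 0.416 CPM in Y440X GFP-negative cells, a log2 fold change of 9.17 ± 0.29. The GFP-negative level of Matn1 was 0.141% and 0.220% of the GFP-positive level, so this transcript made up a very small share of the GFP-negative libraries. In WT the log2 fold change was 6.37 ± 0.25 for Col2a1 and 8.50 ± 0.21 for Matn1.

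The markers of other cell types lay on the opposite side, by smaller margins. Pecam1, an adhesion molecule of endothelial cells, had 5.63 and 4.25 CPM in Y440X GFP-positive cells, against 23.4 and 25.3 CPM in Y440X GFP-negative cells, a log2 fold change of -2.31 ± 0.21. WT libraries had 3.57 and 2.55 CPM in GFP-positive cells, against 60.2 and 60.6 CPM in GFP-negative cells, a log2 fold change of -4.32 ± 0.22. Krt14, a keratin of basal surface epithelium, had 7.17 and 12.3 CPM in Y440X GFP-positive cells, against 19.6 and 24.9 CPM in Y440X GFP-negative cells, a log2 fold change of -1.23 ± 0.22. The GFP-positive level of Krt14 was thus 36.6% and 49.4% of the GFP-negative level, so this keratin was depleted by the sort far less than Matn1 was enriched. In WT, Krt14 had 1.81 and 1.70 CPM in GFP-positive cells, against 4.97 and 6.92 CPM in GFP-negative cells.

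**Figure D1:**
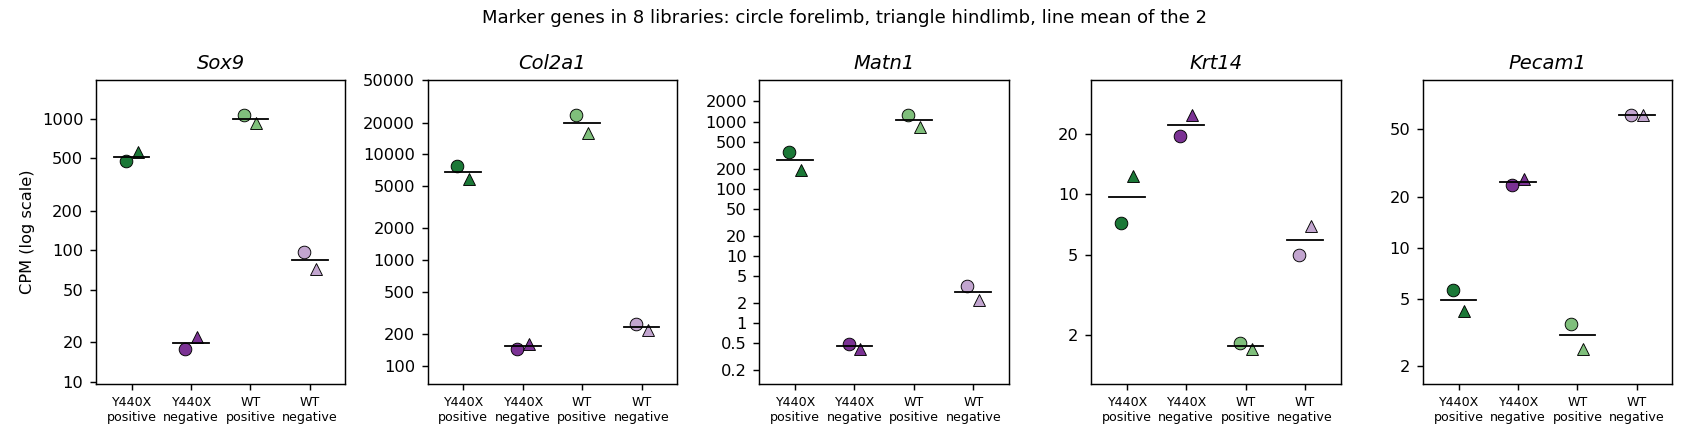
CPM on a log scale of the 5 marker genes in the Y440X GFP-positive, Y440X GFP-negative, WT GFP-positive and WT GFP-negative libraries, with circles for forelimb, triangles for hindlimb and lines for the mean of the 2. Sox9, Col2a1 and Matn1 are high in the GFP-positive and Krt14 and Pecam1 in the GFP-negative libraries of both genotypes, and Pecam1 in GFP-negative cells is lower in Y440X (23.4 and 25.3 CPM) than in WT (60.2 and 60.6 CPM).

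Across the 739 genes, 221 were called higher in Y440X GFP-positive than GFP-negative cells (29.9%) and 312 were called lower (42.2%), 533 in all (72.1%). In WT, 231 were called higher (31.3%) and 373 lower (50.5%), 604 in all (81.7%). Of the 231 genes higher in WT GFP-positive cells, 174 were also called higher in Y440X (75.3%), 49 were not called and 8 were called lower. Of the 373 genes lower in WT GFP-positive cells, 270 were also called lower in Y440X (72.4%), 88 were not called and 15 were called higher. Most of the calls made in WT were therefore made again in Y440X with the same sign, and 23 of the 467 genes called in both genotypes had opposite signs. Another 32 genes were called higher and 34 lower in Y440X without a call in WT.

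Among these listed genes the differences were smaller in Y440X than in WT on both sides. Among the genes called higher in WT the median log2 fold change was 1.35 in Y440X and 2.30 in WT. Among those called lower in WT it was -1.76 in Y440X and -2.95 in WT, or -2.93 in WT with genes at 0 counts set to their bound. Choosing genes by their WT call by itself favours larger values in WT. In a count without that choice, 23 genes were called lower by at least 32-fold in Y440X GFP-positive cells, against 89 in WT. On the other side, 23 were called higher by at least 32-fold in Y440X, against 35 in WT. This count is not free of the listing. Of the genes, 425 were listed as lower in Y440X GFP-negative cells and 227 as lower in Y440X GFP-positive cells. Smaller differences in Y440X are therefore set in part by how the genes were chosen. Across the 739 genes the fold changes of the genotypes had a Pearson r of 0.86, as a description of genes that share libraries and are not replicates. The limbs went the same way in Y440X for 502 of the 503 called genes that had counts in all 4 libraries.

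**Figure D2:**
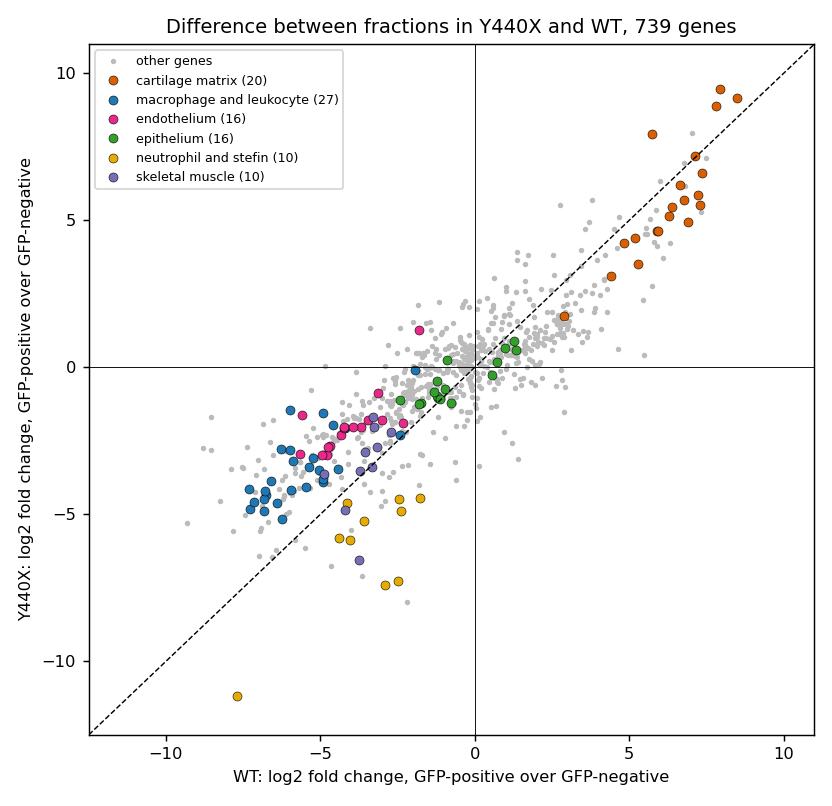
Log2 fold change of GFP-positive over GFP-negative cells in Y440X (vertical) against WT (horizontal) for 739 genes, 1 point a gene, coloured for 6 gene groups, with the dashed line at equal values. Macrophage and endothelial genes lie above the line at the lower left (nearer 0 in Y440X), cartilage matrix genes mostly lie below it at the upper right, and neutrophil and stefin genes lie below it.

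The difference between the genotypes in the fold change was itself tested as an interaction. It was called higher in Y440X for 260 genes (35.2%) and lower for 152 (20.6%), 412 in all (55.8%), so 63.1% of the calls were higher. With scaling by the trimmed mean of M-values (TMM) over the listed genes, 40.9% of the calls were higher. That scaling moved the median fold change of all 739 genes by -0.33 in Y440X and 0.28 in WT. The direction of many of these calls follows from how the genes were listed. Of the 425 genes listed as lower in Y440X GFP-negative cells, 224 had a higher and 4 a lower interaction, and of the 227 listed as lower in Y440X GFP-positive cells, 1 had a higher and 130 a lower one. A pass of the interaction is therefore not independent evidence of a change in sorting or identity.

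Genes of the cartilage matrix were the most enriched group in Y440X GFP-positive cells by median. All 20 of the group's genes in the tables, of 32 in the list, were called higher, with log2 fold changes of 1.75 to 9.48 and a median of 5.48, against a median of -0.25 over all 739 genes. In WT all 20 were called higher too, with a median of 6.50. Over all 739 genes 29.9% were called higher in Y440X and 31.3% in WT. Their summed level was 17652 and 13625 CPM in Y440X GFP-positive cells, against 620.5 and 724 CPM in Y440X GFP-negative cells. The GFP-negative share was 3.52% and 5.31% of the GFP-positive level in Y440X, and 1.65% and 2.21% in WT.

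Cartilage collagen genes held high levels on the GFP-positive side. Col11a1, whose product nucleates collagen II fibrils, had 1982 and 1464 CPM in Y440X GFP-positive cells, against 172 and 229 CPM in Y440X GFP-negative cells, a log2 fold change of 3.10 ± 0.24. Col9a1 had 1295 and 1159 CPM in Y440X GFP-positive cells, against 46.5 and 52.1 CPM in Y440X GFP-negative cells. Col9a2, its partner chain in the collagen IX that coats the fibrils, had 1144 and 1144 CPM in Y440X GFP-positive cells, against 54.2 and 55.1 CPM in Y440X GFP-negative cells. Their fold changes were smaller in Y440X than in WT by 1.28 for Col9a1 and 0.80 for Col9a2 on the log2 scale, both called. Those interactions missed the threshold for Col9a1 without the WT GFP-negative forelimb library (-0.92, adjusted p = 0.065) and for Col9a2 without any single library but the WT GFP-positive hindlimb one (for example -0.71, adjusted p = 0.14, without the WT GFP-negative forelimb library).

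Genes of matrix proteins other than collagens also lay on the GFP-positive side. Acan, the core protein of aggrecan, had 856 and 413 CPM in Y440X GFP-positive cells, against 2.10 and 0.686 CPM in Y440X GFP-negative cells, a log2 fold change of 8.90 ± 0.27. In WT, Acan had 3115 and 2011 CPM in GFP-positive cells, against 18.5 and 6.69 CPM in GFP-negative cells. The GFP-negative level was thus 0.246% and 0.166% of the GFP-positive level in Y440X and 0.593% and 0.333% in WT. Comp, a matrix protein that binds collagen, had 99.6 and 61.1 CPM in Y440X GFP-positive cells, against 0.983 and 0.645 CPM in Y440X GFP-negative cells, a log2 fold change of 6.61 ± 0.24. Mia, a small secreted cartilage protein, had 58.9 and 55.6 CPM in Y440X GFP-positive cells, against 0.256 and 0.208 CPM in Y440X GFP-negative cells, a log2 fold change of 7.93 ± 0.32. Mia stood out from the collagens in that its fold change was larger in Y440X than in WT, where it was 5.72 ± 0.20, by 2.21 ± 0.38 (adjusted p = 3.2e-05).

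Further genes among the 10 most enriched had the same order of fractions. The gene 3110079O15Rik (Snorc), a membrane proteoglycan of cartilage, had 11.7 and 6.33 CPM in Y440X GFP-positive cells, and its 4 libraries held 536 and 286 counts in GFP-positive cells against 1 and 0 in GFP-negative cells. The ratio was 896-fold with a 95% counting interval of 160.3 to 35422. Cytl1, a cytokine-like protein of chondrocytes, had 73.4 and 68.1 CPM in Y440X GFP-positive cells, against 0.452 and 0.520 CPM in Y440X GFP-negative cells. Susd5 had 149 and 106 CPM in Y440X GFP-positive cells, against 0.708 and 1.10 CPM in Y440X GFP-negative cells, and Ncmap had 14.9 and 13.4 CPM, against 0.157 and 0.187 CPM. The log2 fold changes of Cytl1, Susd5 and Ncmap were 7.18, 7.13 and 6.34 in Y440X and 7.13, 7.47 and 5.98 in WT, and no interaction was called for them.

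The regulators of chondrogenesis were enriched along with the matrix. All 10 in the tables, of 27 in the list, were called higher in Y440X GFP-positive cells, with a median of 4.70. All 10 were called higher in WT, with a median of 4.00, beside 29.9% in Y440X and 31.3% in WT over all 739 genes. Sox6 had 257 and 258 CPM in Y440X GFP-positive cells, against 7.73 and 7.05 CPM in Y440X GFP-negative cells, a log2 fold change of 5.12 ± 0.19. Sox5 had 207 and 179 CPM in Y440X GFP-positive cells, against 6.00 and 9.03 CPM in Y440X GFP-negative cells, a log2 fold change of 4.70 ± 0.21. Fgfr3, the receptor that restrains chondrocyte proliferation, had 289 and 270 CPM in Y440X GFP-positive cells, against 15.5 and 25.1 CPM in Y440X GFP-negative cells, a log2 fold change of 3.82 ± 0.21. The interaction was not called for Sox5 (0.20 ± 0.29), Sox6 or Fgfr3, so a difference from WT was not detected for them, which does not show that none exists. Of the 10 regulators the interaction was called higher for 3, Sox9 among them, lower for 1 and not called for 6. Values ran from -2.07 to 1.90, and over all 739 genes 35.2% were called higher and 20.6% lower.

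Mir140, which encodes a microRNA of cartilage, was among the 10 most enriched genes. It had 77 and 65 counts in Y440X GFP-positive cells, against 1 and 0 counts in Y440X GFP-negative cells, a ratio of 155-fold with a 95% counting interval of 27.3 to 6154. Libraries of poly(A) RNA record the longer precursor or host transcript and not the mature form, so the value is of transcription at the locus. Mir140 lies at chr8:107551244-107551313 on the plus strand (GRCm38). The mature 3p form is shown because the gene is the only microRNA among the named genes, with its seed, bases 2 to 8, in capitals (RefSeq, GRCm38.p6).
mmu-miR-140-3p: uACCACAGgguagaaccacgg

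Promoter sequences are shown for genes on both sides of the comparison, as the 250 bases before a RefSeq start (GRCm38.p6), read 5′ to 3′ on the gene's strand. Matn1 was the most enriched of the 5 markers, Sox5 is the partner of SOX9, and Mrc1 and Stab1 are macrophage genes depleted from GFP-positive cells. Motifs were searched on both strands. For SOX factors the letters searched were ACAATG, and the close variant ACAAAG was counted with it. For PU.1, a factor of macrophages, the letters searched were GAGGAA, which on the opposite strand read TTCCTC. Neither motif contains the other. Matches are in capitals, and Sox5, Mrc1 and Stab1 were chosen after their matches were seen. The Sox5 start is 1 of several, and the last bases of the Mrc1 window lie inside the annotated gene.
Matn1, chr4:130944135-130944384, plus strand: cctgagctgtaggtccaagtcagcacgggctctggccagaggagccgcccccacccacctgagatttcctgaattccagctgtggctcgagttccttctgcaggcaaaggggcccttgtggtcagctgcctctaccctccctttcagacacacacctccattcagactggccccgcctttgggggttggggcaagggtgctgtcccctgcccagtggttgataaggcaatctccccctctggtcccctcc
Sox5, chr6:143947107-143947356, minus strand: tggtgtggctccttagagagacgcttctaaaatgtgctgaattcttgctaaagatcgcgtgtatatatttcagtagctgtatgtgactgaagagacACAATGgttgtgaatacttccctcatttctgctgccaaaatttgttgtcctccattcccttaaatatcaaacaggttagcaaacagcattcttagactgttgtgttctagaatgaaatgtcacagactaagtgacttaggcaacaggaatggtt
Mrc1, chr2:14229164-14229413, plus strand: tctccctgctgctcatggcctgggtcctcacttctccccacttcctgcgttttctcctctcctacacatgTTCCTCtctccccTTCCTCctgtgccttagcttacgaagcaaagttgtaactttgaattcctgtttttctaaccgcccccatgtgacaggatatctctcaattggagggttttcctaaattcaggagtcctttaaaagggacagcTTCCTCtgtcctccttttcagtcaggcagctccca
Stab1, chr14:31168642-31168891, minus strand: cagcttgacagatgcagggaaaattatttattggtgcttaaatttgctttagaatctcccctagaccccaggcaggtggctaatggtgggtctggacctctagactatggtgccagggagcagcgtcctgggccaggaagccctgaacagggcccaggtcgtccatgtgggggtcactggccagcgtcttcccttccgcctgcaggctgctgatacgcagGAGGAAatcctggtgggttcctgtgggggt

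RefSeq promoters were matched for 509 of the 739 genes. The PU.1 core was found in 28 of 152 promoters of genes called higher in Y440X GFP-positive cells (18.4%), in 82 of 220 of genes called lower (37.3%), in 145 of the 509 (28.5%) and in 23.1% of all 27025 promoters. The SOX core was found in 29 of 152 (19.1%), in 42 of 220 (19.1%), in 100 of the 509 (19.6%) and in 25.5% of all promoters. For the 10 highest fold changes, the SOX core was in 0 of 6 matched promoters and the PU.1 core in 2 of 6. For the 10 lowest they were in 0 of 8 and 2 of 8. These are counts of letters in a window, given as a description, and they say nothing of binding.

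Genes of later chondrocyte stages were mostly on the GFP-positive side. Of the 8 prehypertrophic and bone genes in the tables, of 20 in the list, 6 were called higher in Y440X GFP-positive cells and none lower, with a median of 1.61. Over all 739 genes 29.9% were called higher and 42.2% lower. Ihh, the hedgehog ligand of prehypertrophic chondrocytes, had 20.7 and 35.7 CPM in Y440X GFP-positive cells, against 0.374 and 0.374 CPM in Y440X GFP-negative cells, a log2 fold change of 6.18 ± 0.29. Panx3, a channel protein of the same stage, had 29.7 and 38.2 CPM in Y440X GFP-positive cells, against 0.177 and 0.0832 CPM in Y440X GFP-negative cells, a log2 fold change of 7.97 ± 0.46. Ihh and Panx3 thus stayed on the GFP-positive side in Y440X, and the interaction was not called for either. Of the 8 genes the interaction was called higher for 3 and lower for 3, beside 35.2% higher and 20.6% lower over all 739 genes.

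Alpl and Slc8a3 differed from WT in opposite ways. Alpl, the alkaline phosphatase of mineralizing cells, had 23.8 and 23.3 CPM in Y440X GFP-positive cells, against 5.25 and 4.51 CPM in Y440X GFP-negative cells, a log2 fold change of 2.27 ± 0.24. In WT, Alpl had 7.13 and 11.9 CPM in GFP-positive cells, against 14.0 and 9.44 CPM in GFP-negative cells, and was not called (-0.31 ± 0.24), so only the Y440X fractions stood apart in both limbs. The interaction of Alpl was 2.59 ± 0.34 (adjusted p = 3.8e-06). Slc8a3, a sodium-calcium exchanger, had 10.1 and 10.3 CPM in Y440X GFP-positive cells, against 6.12 and 3.99 CPM in Y440X GFP-negative cells, and its fold change was 1.04 in Y440X and 2.82 in WT.

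Joint and BMP pathway genes were also on the GFP-positive side. Gdf5, the BMP family ligand that marks joint-forming cells, had 132 and 158 CPM in Y440X GFP-positive cells, against 10.4 and 10.2 CPM in Y440X GFP-negative cells, a log2 fold change of 3.81 ± 0.19. The WT values were 138 and 133 CPM in GFP-positive cells, against 25.9 and 21.3 CPM in GFP-negative cells. The GFP-positive levels of the genotypes overlapped, while the GFP-negative level was lower in Y440X. Prg4, the lubricin of joint surfaces, had 5.94 and 11.7 CPM in Y440X GFP-positive cells, against 0.708 and 0.458 CPM in Y440X GFP-negative cells, and its fold change was larger in Y440X than in WT by 2.10 on the log2 scale (adjusted p = 3.2e-04).

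All 4 BMP pathway genes in the tables, of 35 in the list, were called higher in Y440X GFP-positive cells, Gdf5 among them, with a median of 2.62. The share called higher over all 739 genes was 29.9%. Bmpr1b, a receptor needed for early cartilage condensation, had 109 and 88.8 CPM in Y440X GFP-positive cells, against 11.3 and 10.7 CPM in Y440X GFP-negative cells. Nog, the secreted BMP antagonist noggin, had 45.2 and 61.9 CPM in Y440X GFP-positive cells, against 13.2 and 11.9 CPM in Y440X GFP-negative cells. Bmpr2, the shared type II receptor, had 196 and 190 CPM in Y440X GFP-positive cells, against 127 and 127 CPM in Y440X GFP-negative cells, a log2 fold change of 0.60 ± 0.19. The call of Bmpr2 was lost without either Y440X forelimb library (0.58, adjusted p = 0.067 and 0.064) and under TMM scaling (0.27).

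**Figure D3:**
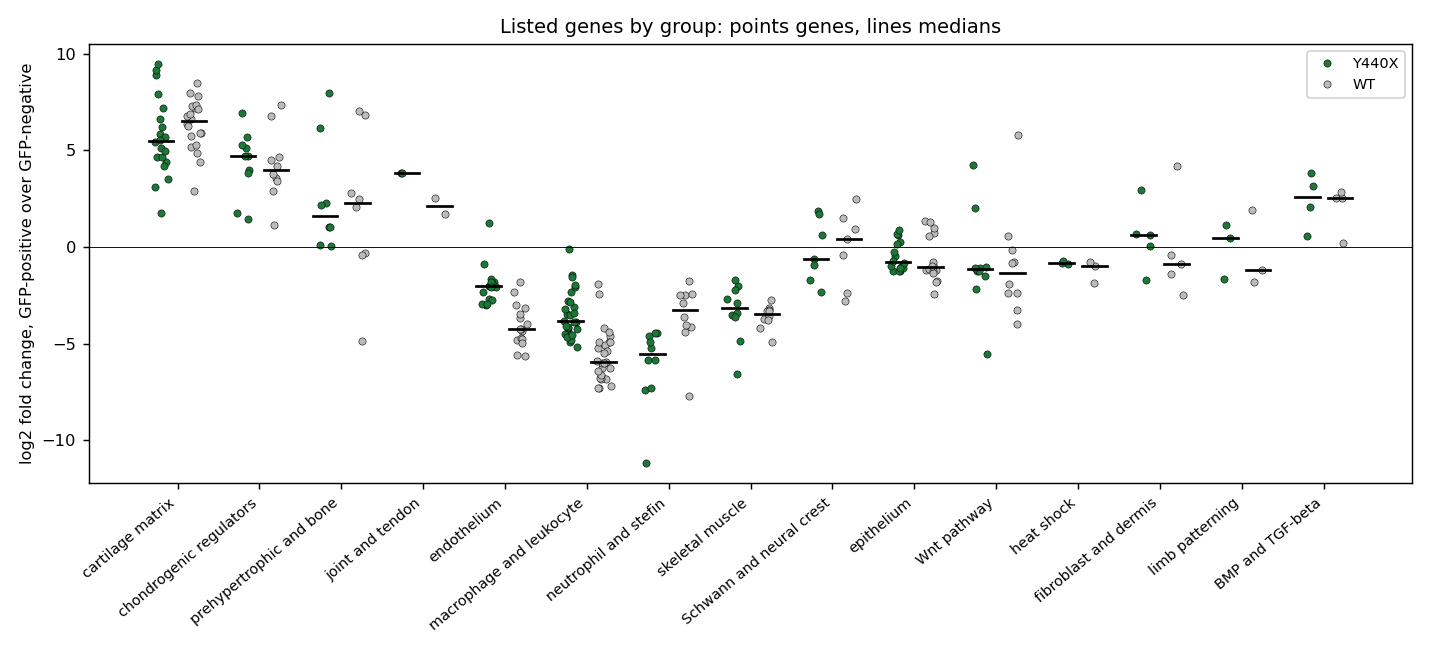
Log2 fold change of GFP-positive over GFP-negative cells for the genes of 15 groups, Y440X in green and WT in grey, with 1 point a gene and a line at each median. Cartilage genes lie above 0 and leukocyte and muscle genes below it in both genotypes, as do endothelial genes except Esm1 in Y440X, and the medians of endothelial (-2.03 in Y440X, -4.24 in WT) and macrophage genes (-3.80 in Y440X, -5.94 in WT) are nearer 0 in Y440X. The genes were listed for genotype differences in these libraries, so differences from WT are set in part by the listing.

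Endothelial genes were depleted from Y440X GFP-positive cells, by less than in WT. Of the 16 in the tables, of 33 in the list, 15 were called lower in Y440X GFP-positive cells and 1 higher, with a median of -2.03. In WT all 16 were called lower, with a median of -4.24. Over all 739 genes 42.2% were called lower in Y440X and 50.5% in WT. Their summed level was 30.7 and 29.6 CPM in Y440X GFP-positive cells, against 142 and 147 CPM in Y440X GFP-negative cells. In WT it was 19.98 and 19.8 CPM in GFP-positive cells, against 346 and 331 CPM in GFP-negative cells. The GFP-positive share of the GFP-negative level was thus 21.6% and 20.2% in Y440X and 5.77% and 5.98% in WT. In these bulk samples fewer cells of a type and less RNA per cell cannot be told apart.

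Cdh5, the cadherin of endothelial junctions, had 5.15 and 4.98 CPM in Y440X GFP-positive cells, against 38.8 and 40.8 CPM in Y440X GFP-negative cells, a log2 fold change of -2.97 ± 0.20. Tek, the angiopoietin receptor, had 4.01 and 3.83 CPM in Y440X GFP-positive cells, against 15.2 and 11.9 CPM in Y440X GFP-negative cells. Adgrf5, an adhesion receptor of endothelium, had 2.83 and 4.03 CPM in Y440X GFP-positive cells, against 12.2 and 15.8 CPM in Y440X GFP-negative cells. The fold change of each was nearer 0 in Y440X, by 1.81 for Cdh5, 1.24 for Tek and 1.92 for Adgrf5 on the log2 scale, and that of Tek was not called under TMM scaling (0.62, adjusted p = 0.091). Of the 16 interactions 15 were called higher and none lower, beside 35.2% higher and 20.6% lower over all 739 genes. Most of the 16 genes were listed for a lower level in Y440X GFP-negative cells, so this count and the group's sums are set in part by the listing.

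Macrophage and leukocyte genes showed the same arrangement with a wider gap. Of the 27 in the tables, of 35 in the list, 26 were called lower in Y440X GFP-positive cells and Folr2 was not called (-0.10), with a median of -3.80. In WT all 27 were called lower, with a median of -5.94. The shares called lower over all 739 genes were 42.2% in Y440X and 50.5% in WT. Their summed level was 22.5 and 19.6 CPM in Y440X GFP-positive cells, against 253 and 209.7 CPM in Y440X GFP-negative cells. In WT it was 23.6 and 22.6 CPM in GFP-positive cells, against 949 and 798 CPM in GFP-negative cells. The GFP-positive sums of the genotypes lay close together and the GFP-negative sums did not overlap. Of the 27 interactions 24 were called higher and none lower, beside 35.2% higher and 20.6% lower over all 739 genes. As 425 of the 739 genes were listed as lower in Y440X GFP-negative cells, the listing sets these sums and counts in part.

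Mrc1, the mannose receptor of fetal tissue macrophages, had 1.71 and 0.908 CPM in Y440X GFP-positive cells, against 29.3 and 22.7 CPM in Y440X GFP-negative cells, a log2 fold change of -4.34 ± 0.22. In WT it had 1.53 and 1.21 CPM in GFP-positive cells, against 153 and 141 CPM in GFP-negative cells, a log2 fold change of -6.75 ± 0.22. Csf1r, the receptor on which macrophages depend, had 0.964 and 0.620 CPM in Y440X GFP-positive cells, against 25.3 and 21.5 CPM in Y440X GFP-negative cells, a log2 fold change of -4.90 ± 0.24. Stab1, a scavenger receptor of macrophages and some endothelium, had 3.99 and 3.39 CPM in Y440X GFP-positive cells, against 39.8 and 37.7 CPM in Y440X GFP-negative cells. Laptm5, a lysosomal protein of leukocytes, differed from these in that its fold change was -2.31 in Y440X and -2.41 in WT, with no interaction called.

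Several of the 10 most depleted genes were also leukocyte genes at low levels. Cybb, a subunit of the phagocyte oxidase, had 0.0438 and 0.0443 CPM in Y440X GFP-positive cells, against 4.19 and 3.85 CPM in Y440X GFP-negative cells, a log2 fold change of -6.42 ± 0.72. Rgs1, a regulator of G protein signalling in leukocytes, had 0.110 and 0.0443 CPM in Y440X GFP-positive cells, against 6.76 and 4.93 CPM in Y440X GFP-negative cells. The chemokine Ccl9 and the costimulatory ligand Cd86 had log2 fold changes of -5.86 and -5.56 in Y440X. Cd84 had 1 and 0 counts in Y440X GFP-positive cells, against 75 and 45 counts in Y440X GFP-negative cells, 110.1-fold lower with a 95% counting interval of 19.4 to 4385.

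Neutrophil granule and stefin genes were depleted too, with a lower median in Y440X than in WT. All 10 in the tables, of 19 in the list, were called lower in Y440X GFP-positive cells, with a median of -5.52, against 7 of 10 in WT, with a median of -3.25, or -2.43 with genes at 0 counts set to their bound. The interaction was called lower for 3 of the 10 and not called for 7. Over all 739 genes, 42.2% were called lower in Y440X, 50.5% in WT and 20.6% for the interaction. Several WT values of the group rest on few reads, which limits the WT calls and median. Ltf had 0 counts in WT GFP-positive cells, against 5 in WT GFP-negative cells, and Ngp had 2 against 14. S100a9, a calcium-binding protein of neutrophils, had 0 and 0 counts in Y440X GFP-positive cells, against 282 and 352 counts in Y440X GFP-negative cells, and was at least 194-fold lower, taking 3 counts over the 2 libraries as the floor. In WT it had 0 and 0 counts in GFP-positive cells, against 23 and 29 counts in GFP-negative cells, at least 15.4-fold lower. Its partner S100a8 had 0 and 2 counts in Y440X GFP-positive cells, against 189 and 225 counts in Y440X GFP-negative cells, 189.96-fold lower with a 95% counting interval of 52.3 to 1574. These genes were near 0 in the GFP-positive cells of both genotypes, and the level in GFP-negative cells set the difference. Genes so low in GFP-positive cells could hardly be listed except for a genotype difference in GFP-negative cells. The lower median in Y440X is therefore set in part by the listing.

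Ngp, a granule protein of immature neutrophils, had 1.59 and 2.70 CPM in Y440X GFP-negative cells, where GFP-positive cells held 1 and 0 counts, a ratio of 194-fold with a 95% counting interval of 34.4 to 7684. Ltf, the lactoferrin of secondary granules, was 60.3-fold lower in Y440X GFP-positive cells with a 95% counting interval of 20.3 to 295. Stfa1, a stefin protease inhibitor, had 0 and 0.111 CPM in Y440X GFP-positive cells, against 2.01 and 2.25 CPM in Y440X GFP-negative cells. Stefin genes are near-identical copies, so reads may be split among them and their single values are uncertain.

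An erythroid gene was also called lower in Y440X GFP-positive cells. Alas2, the first enzyme of haem synthesis in red cells, had 1.67 and 1.88 CPM in Y440X GFP-positive cells, against 41.1 and 42.6 CPM in Y440X GFP-negative cells, a log2 fold change of -4.56 ± 0.22. WT libraries had 1.29 and 1.82 CPM in GFP-positive cells, against 10.8 and 12.7 CPM in GFP-negative cells, a log2 fold change of -2.92 ± 0.23. The GFP-positive level of Alas2 was 4.05% and 4.42% of the GFP-negative level in Y440X and 11.99% and 14.3% in WT. These are values of 1 gene and not of the erythroid genes as a group.

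Skeletal muscle genes were depleted from GFP-positive cells to a like degree in both genotypes by median. All 10 in the tables, of 44 in the list, were called lower in Y440X GFP-positive cells, with a median of -3.14. All 10 were called lower in WT, with a median of -3.44, beside 42.2% in Y440X and 50.5% in WT over all 739 genes. Their summed level was 9.53 and 7.68 CPM in Y440X GFP-positive cells, against 62.6 and 51.1 CPM in Y440X GFP-negative cells. In WT it was 14.5 and 10.6 CPM in GFP-positive cells, against 134 and 137 CPM in GFP-negative cells. The interaction was called higher for 1 of the 10, lower for 1 and not for the other 8. Over all 739 genes it was called higher for 35.2% and lower for 20.6%.

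Mylpf, a myosin light chain of fast fibres, had 4.05 and 3.94 CPM in Y440X GFP-positive cells, against 18.6 and 14.4 CPM in Y440X GFP-negative cells, and its fold change was nearer 0 than in WT by 1.21 on the log2 scale, a call not made under TMM scaling (0.59, adjusted p = 0.13). Actn2, the sarcomeric actinin, had a log2 fold change of -3.52 ± 0.27 in Y440X and -3.72 ± 0.25 in WT. Tnnc1 and Acta1, a troponin and the skeletal actin, had log2 fold changes of -2.89 and -2.70 in Y440X. Cacna1s, the calcium channel of muscle excitation, had 1 and 0 counts in Y440X GFP-positive cells, against 69 and 58 counts in Y440X GFP-negative cells, 117-fold lower with a 95% counting interval of 20.5 to 4639.

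**Figure D4:**
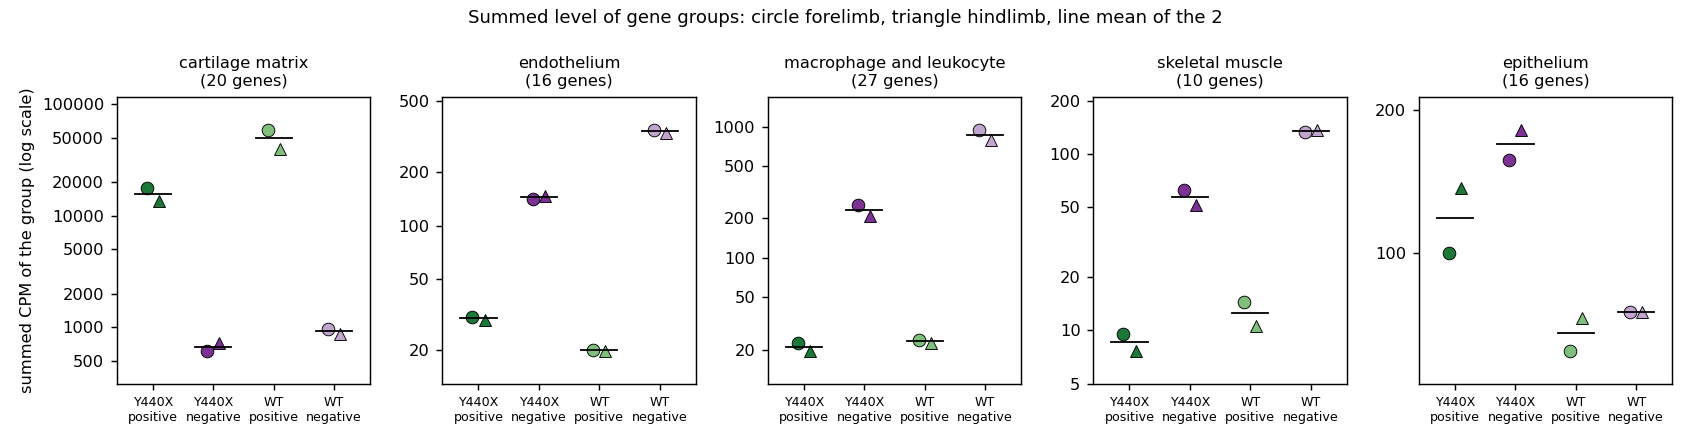
Summed CPM on a log scale of 5 gene groups in the Y440X GFP-positive, Y440X GFP-negative, WT GFP-positive and WT GFP-negative libraries, with circles for forelimb, triangles for hindlimb and lines for the mean of the 2. Endothelial and macrophage sums differ between genotypes mainly in GFP-negative cells (macrophage 253 and 209.7 CPM in Y440X, 949 and 798 CPM in WT), whereas epithelial sums are close between fractions and higher in both Y440X fractions. The summed genes were listed for genotype differences in these libraries, so these differences are set in part by the listing.

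Epithelial genes separated the fractions weakly and in both directions. Of the 16 in the tables, of 43 in the list, 9 were called lower in Y440X GFP-positive cells and 3 higher, with a median of -0.78, beside 42.2% lower and 29.9% higher over all 739 genes. In WT 9 were called lower and 5 higher. Without any 1 of the 4 Y440X libraries 6 were called lower and 1 higher in Y440X, and under TMM scaling 11 lower and 1 higher. Their summed level was 99.8 and 137 CPM in Y440X GFP-positive cells, against 157 and 182 CPM in Y440X GFP-negative cells, so the GFP-positive share was 63.5% and 75.3%. In WT it was 62.3 and 73.1 CPM in GFP-positive cells, against 75.1 and 75.3 CPM in GFP-negative cells. Krt5, the partner keratin of Krt14, had 10.7 and 22.0 CPM in Y440X GFP-positive cells, against 32.3 and 40.8 CPM in Y440X GFP-negative cells, a log2 fold change of -1.24 ± 0.21.

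The epithelial genes that were higher in Y440X GFP-positive cells were Krt17, Grhl1 and Grhl2, and their calls were fragile. Grhl2, a grainyhead factor of epithelial identity, had 4.56 and 5.18 CPM in Y440X GFP-positive cells, against 2.32 and 2.93 CPM in Y440X GFP-negative cells, a log2 fold change of 0.90 ± 0.26. The call of Grhl2 was lost without either Y440X forelimb library (0.82, adjusted p = 0.061). The keratin Krt17 (0.60 ± 0.26) lost its call without either Y440X hindlimb library (0.31, adjusted p = 0.51), under TMM scaling (0.27) and without the replicate block (0.63, adjusted p = 0.051), and Grhl1 (0.66 ± 0.24) lost it without any 1 of the 4 Y440X libraries (0.61 to 0.71) and under TMM scaling (0.33). Epcam, the adhesion molecule of epithelia, had 18.2 and 15.3 CPM in Y440X GFP-positive cells, against 13.8 and 14.3 CPM in Y440X GFP-negative cells, and was not called (0.25 ± 0.20, and -0.08 under TMM scaling). Lama5, a laminin chain of basement membranes, was not called either (-0.27 ± 0.19), except under TMM scaling (-0.60, adjusted p = 0.012).

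Glial and neural crest genes were mixed. Of the 7 in the tables, of 25 in the list, 2 were called higher in Y440X GFP-positive cells, 4 lower and 1 not called, with a median of -0.61. Such counts lie near the 29.9% called higher and 42.2% called lower over all 739 genes. Sox10, the SOX factor of Schwann cell precursors, had 6.53 and 6.998 CPM in Y440X GFP-positive cells, against 2.60 and 1.25 CPM in Y440X GFP-negative cells, a log2 fold change of 1.87 ± 0.28. Cdh19, a cadherin of the same cells, had 1.53 and 2.04 CPM in Y440X GFP-positive cells, against 0.669 and 0.395 CPM in Y440X GFP-negative cells. Ednrb, an endothelin receptor of neural crest, had 2.02 and 1.17 CPM in Y440X GFP-positive cells, against 11.1 and 5.20 CPM in Y440X GFP-negative cells, a log2 fold change of -2.31 ± 0.23. Erbb3, the neuregulin receptor of Schwann cells, had 7.98 and 12.3 CPM in Y440X GFP-positive cells, against 20.2 and 11.4 CPM in Y440X GFP-negative cells, so the limbs went opposite ways. Its call (-0.61 ± 0.25) turned to 0.12 (adjusted p = 0.73) without either Y440X forelimb library, and the median of the group turned to 0.12 with it. The group then had 1 gene called lower, and 2 without the replicate block or with a mean of at least 1 CPM required. The call of Erbb3 was also lost with DESeq2 (-0.61, adjusted p = 0.083), limma (-0.59), no replicate block (-0.64) and the 4 Y440X libraries alone (adjusted p = 0.052).

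Wnt pathway genes were mostly depleted from Y440X GFP-positive cells, while a pair of receptors were enriched. Of the 10 in the tables, of 46 in the list, 8 were called lower and 2 higher, with a median of -1.15. The shares over all 739 genes were 42.2% lower and 29.9% higher. Fzd9, a frizzled receptor, had 37.4 and 22.2 CPM in Y440X GFP-positive cells, against 1.71 and 1.31 CPM in Y440X GFP-negative cells, a log2 fold change of 4.27 ± 0.22. Fzd4, another frizzled receptor, had 143 and 129 CPM in Y440X GFP-positive cells, against 34.9 and 32.6 CPM in Y440X GFP-negative cells, a log2 fold change of 2.01 ± 0.18. In WT the log2 fold change was 5.80 for Fzd9 and 0.58 for Fzd4, so the first was less and the second more enriched in Y440X.

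Lef1, the nuclear effector of the pathway, was called between the fractions in Y440X and not in WT. It had 22.3 and 22.0 CPM in Y440X GFP-positive cells, against 60.8 and 64.8 CPM in Y440X GFP-negative cells, a log2 fold change of -1.50 ± 0.19. The WT values were 37.0 and 54.5 CPM in GFP-positive cells, against 46.6 and 53.3 CPM in GFP-negative cells, and was not called (-0.15 ± 0.19). The difference between the genotypes was -1.36 ± 0.26 (adjusted p = 2.1e-04). Rspo1, a secreted enhancer of Wnt signalling, had 0.460 and 0.487 CPM in Y440X GFP-positive cells, against 29.7 and 15.7 CPM in Y440X GFP-negative cells, a log2 fold change of -5.52 ± 0.31.

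The 3 heat shock genes in the tables, of 18 in the list, were called lower in the GFP-positive cells of both genotypes. Of all 739 genes, 42.2% were called lower in Y440X and 50.5% in WT. Hspa1b, an inducible chaperone, had 148 and 157 CPM in Y440X GFP-positive cells, against 242 and 299 CPM in Y440X GFP-negative cells, a log2 fold change of -0.82 ± 0.18. In WT it had 32.7 and 29.5 CPM in GFP-positive cells, against 50.4 and 55.3 CPM in GFP-negative cells, a log2 fold change of -0.76 ± 0.19. Hspa1a, its near-identical copy, with which it may share reads, had log2 fold changes of -0.85 in Y440X and -0.98 in WT. These genes are induced by dissociation and warming in many tissues, as background, and both Y440X fractions lay above both WT fractions for Hspa1b. Their level thus moved with genotype, and its part in other results was not tested. Hspb1, a small chaperone, lost its Y440X call (-0.73 ± 0.21) without either Y440X forelimb library (-0.42, adjusted p = 0.23).

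Connective tissue and patterning genes included several that lost or turned their WT difference. Ebf3, an early B-cell factor family member of limb connective tissue, had 319 and 251 CPM in Y440X GFP-positive cells, against 199.8 and 159 CPM in Y440X GFP-negative cells, a log2 fold change of 0.66 ± 0.19. WT libraries had 201 and 219.7 CPM in GFP-positive cells, against 423 and 347 CPM in GFP-negative cells, a log2 fold change of -0.87 ± 0.19. The fractions did not overlap in either genotype and their order was opposite, and the Y440X call was lost under TMM scaling (0.33, adjusted p = 0.19). Ebf1 (0.61 ± 0.20) lost its Y440X call without either Y440X hindlimb library (0.38) and under TMM scaling (0.27). Crabp1, a retinoic acid binding protein of dermal mesenchyme, had 86.0 and 98.4 CPM in Y440X GFP-positive cells, against 320.4 and 270.3 CPM in Y440X GFP-negative cells, a log2 fold change of -1.68 ± 0.19.

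Cspg4, a proteoglycan of pericytes and immature cartilage, had 267 and 203 CPM in Y440X GFP-positive cells, against 30.5 and 29.5 CPM in Y440X GFP-negative cells, a log2 fold change of 2.96 ± 0.19. Of the 5 connective tissue genes in the tables, of 24 in the list, 3 were called higher, 1 lower and Ebf2 was not called (0.05). The shares over all 739 genes were 29.9% higher and 42.2% lower. Among 3 limb patterning genes of 39 in the list, Cyp26b1, which degrades retinoic acid, was higher in Y440X GFP-positive cells (1.16 ± 0.19) and Meis1, a homeobox factor of the proximal limb, was lower (-1.67 ± 0.21). Meox1, a homeobox factor of somites and muscle, had 22.6 and 21.1 CPM in Y440X GFP-positive cells, against 13.3 and 18.1 CPM in Y440X GFP-negative cells, a log2 fold change of 0.49 ± 0.21. The WT values were 4.50 and 6.61 CPM in GFP-positive cells, against 18.4 and 19.6 CPM in GFP-negative cells. The Y440X call of Meox1 was lost without either Y440X forelimb library (0.22, adjusted p = 0.54), without any single WT library but the GFP-positive hindlimb one (0.49, adjusted p = 0.050 to 0.052), without the replicate block and under TMM scaling, whereas its interaction (2.29 ± 0.30) was called in each of these.

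Among the 23 genes called with opposite signs, 15 were on the GFP-positive side in Y440X and 8 on the GFP-negative side. These were 4.02% of the 373 genes called lower in WT and 3.46% of the 231 called higher. The shares were thus close, and neither direction stood out. Tnfsf11, the cytokine RANKL that drives osteoclast formation, had 2.83 and 1.53 CPM in Y440X GFP-positive cells, against 0.629 and 0.354 CPM in Y440X GFP-negative cells, a log2 fold change of 2.14 ± 0.35. In WT it had 0.595 and 0.771 CPM in GFP-positive cells, against 3.29 and 1.83 CPM in GFP-negative cells, a log2 fold change of -1.85 ± 0.33. Its fractions did not overlap in either genotype, and the interaction was 3.98 ± 0.48 (adjusted p = 1.6e-06).

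Esm1, a secreted proteoglycan of endothelial tip cells, was the endothelial gene that went against its group. It had 1.42 and 2.81 CPM in Y440X GFP-positive cells, against 0.708 and 1.02 CPM in Y440X GFP-negative cells, a log2 fold change of 1.25 ± 0.31. WT libraries had 0.646 and 1.10 CPM in GFP-positive cells, against 2.80 and 3.20 CPM in GFP-negative cells. The Y440X call of Esm1 was lost without either Y440X hindlimb library (1.01, adjusted p = 0.066 and 0.067). Dnah5, a dynein chain of motile cilia, had 4.34 and 2.21 CPM in Y440X GFP-positive cells, against 0.846 and 0.520 CPM in Y440X GFP-negative cells, and a fold change of 2.24 in Y440X and -1.15 in WT.

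Others of these genes rested on few reads. The Y440X calls of Myom2, a protein of the sarcomere (1.33), and of Xlr3c, with 2 counts in Y440X GFP-positive cells, against 21 in Y440X GFP-negative cells (9.64-fold lower, 95% counting interval 2.36 to 84.8), were lost without either Y440X hindlimb library (0.67, adjusted p = 0.24, for Myom2). Il1rn, the interleukin 1 receptor antagonist (1.54 ± 0.66), lost its call without any 1 of the 4 Y440X libraries (1.14 to 2.34), under TMM scaling (1.23) and with limma (0.38). B130024G19Rik had a fold change of 1.13 in Y440X and -1.10 in WT. Otogl and Myt1 ran the other way. Otogl, an otogelin-like secreted protein, had 1.40 and 0.509 CPM in Y440X GFP-positive cells, against 3.34 and 5.37 CPM in Y440X GFP-negative cells (-2.21 ± 0.38), and Myt1, a zinc finger factor of neural cells, had a fold change of -2.59 in Y440X and 1.22 in WT.

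**Figure D5:**
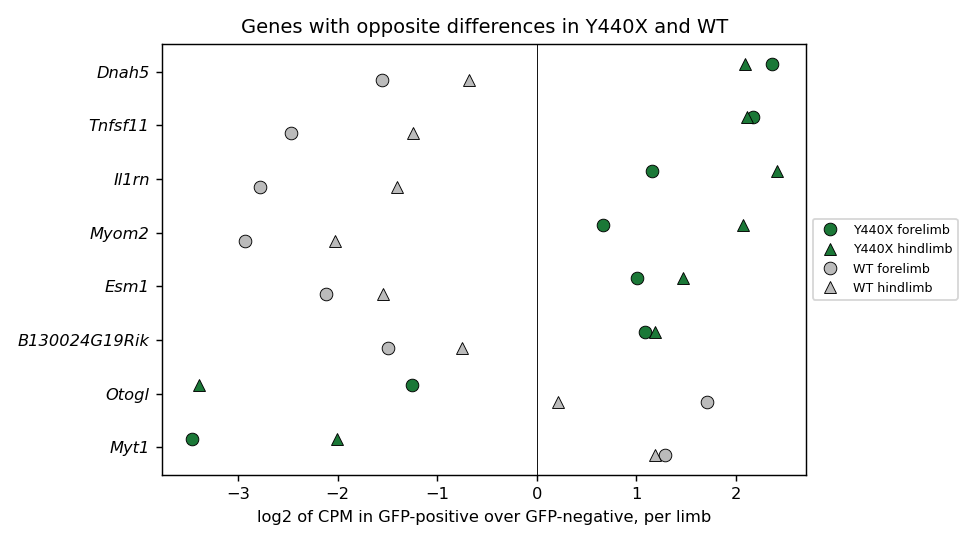
Log2 of the CPM ratio of GFP-positive over GFP-negative cells in each limb, Y440X in green above WT in grey, with circles for forelimb and triangles for hindlimb, for 8 named opposite genes that had counts in every library. All Y440X points of 6 genes lie right of 0 and all of Otogl and Myt1 left of it, with the WT points on the other side.

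The interactions were also ranked among called genes with a mean of at least 1 CPM in at least 1 of the 4 groups. Beside S100a8 and Ngp, the 6 lowest held genes that were called higher in WT GFP-positive cells and not in Y440X ones. Fxyd3, a regulator of the sodium pump in epithelia, had 0.351 and 0.598 CPM in Y440X GFP-positive cells, against 0.236 and 0.478 CPM in Y440X GFP-negative cells, and was not called (0.42 ± 0.41). The WT values were 4.91 and 5.09 CPM in GFP-positive cells, against 0.149 and 0.0676 CPM in GFP-negative cells, a log2 fold change of 5.49 ± 0.52. Klk10, a secreted protease of epithelia, had a fold change of 0.63 in Y440X, not called, and 4.65 in WT. Upk1b, an uroplakin, had -0.63 in Y440X, called only under TMM scaling (-0.97, adjusted p = 0.038), and 2.62 in WT. The annexin Anxa8 had -0.66 in Y440X, a call lost without any 1 of the 4 Y440X libraries (-0.40 to -0.88) and with DESeq2 (-0.66, adjusted p = 0.083), limma (-0.47), no replicate block (-0.70), a minimum of 10 counts and library sizes from the GFP-positive tables, against 2.93 in WT.

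The 6 highest interactions of the same ranking were of genes at low levels in Y440X. Ccl12, a monocyte chemokine, had 0.197 and 0.0221 CPM in Y440X GFP-positive cells, against 0.865 and 0.562 CPM in Y440X GFP-negative cells, and in WT 1 count in all in GFP-positive cells, against 2.95 and 2.14 CPM in GFP-negative cells. Cmah, an enzyme of sialic acid synthesis, Zfp366, a zinc finger factor, and Fam167b had Y440X log2 fold changes of -1.92, -2.75 and -1.70. Tlr8, a receptor for RNA, had 2 counts in Y440X GFP-positive cells, against 17 in Y440X GFP-negative cells, 7.80-fold lower with a 95% counting interval of 1.85 to 69.6. Tlr8, Zfp366 and Fam167b had 0 counts in both WT GFP-positive libraries, so their WT separation is a bound, of at least 27.6-fold for Tlr8, 33.6-fold for Zfp366 and 27.6-fold for Fam167b. The Y440X call was lost for Tlr8 without any 1 of the 4 Y440X libraries (adjusted p = 0.063 to 0.084), for Fam167b without either Y440X forelimb library (-1.54, adjusted p = 0.063 and 0.060) and for Cmah without the Y440X GFP-positive forelimb library (-1.96, adjusted p = 0.050). Cxcl3, a neutrophil-attracting chemokine, was not called in Y440X, with 3 counts in GFP-positive cells, against 12 in GFP-negative cells, 3.67-fold lower with a 95% counting interval of 0.991 to 20.3, except under TMM scaling (adjusted p = 0.032).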

How the data were processed

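Poly(A) RNA of sorted cells was sequenced from stranded libraries, per the labels' protocols. Per the submitters' processing notes, the tools were featureCounts and edgeR 3.36.0, with GRCm38 and mm10 as builds, and no aligner is named there. The deposited per-library values are headed RPKM, per the file headers, but are read counts: 100% were whole, and divided by the authors' CPM they gave 1 library size at any gene length (median 44.67, 5th to 95th percentile 41.58 to 46.72, times 1000000 reads). An RPKM reading missed that CPM by a median factor of 162.2. The deposited tables also hold a gene length in bases (other), a log2 fold change and a log2 CPM, an F statistic (score), and a p-value with its FDR, per the file headers. The largest FDR in the authors' deposited tables was 0.0495, and the smallest absolute log2 fold change was 1.00.

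Least squares on the deposited log2 CPM and fold changes of 387 genes with at least 1000 summed counts gave the effective library sizes, allowing for a prior count of 2. Residuals reached at most 0.0284 in log2 CPM. The 8 sizes lay between 38688000 and 50853000 reads, so 1 CPM is about 38.7 to 50.9 reads. Intervals and floors (3 counts) cover counting error only. edgeR 4.0.16 in R 4.3.3 fitted all 8 libraries, with pool (genotype by limb) as a block and a fraction effect per genotype, with Benjamini-Hochberg adjustment across all 739 genes. WT libraries share the estimate of spread, with 2 residual and 23.4 prior degrees of freedom. The block rests on the protocol, in which 1 suspension was sorted into both fractions. Across genes, the limb differences of the fractions correlated at 0.21 in Y440X and 0.15 in WT. The fit was tested on simulated data.

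The members and lists were chosen with earlier results of these data known. Named genes were the 5 markers, the 10 highest and 10 lowest called fold changes in Y440X with at least 1 CPM, in each list the 4 most abundant members in Y440X and called members against its median, the 6 highest and 6 lowest called interactions with a mean of at least 1 CPM in at least 1 group, and at most 10 genes called with opposite signs. A few genes that this rule names, and the count of the erythroid list, are not reported here. Gene coordinates are of GRCm38 (GENCODE). There were 0 unused library columns. Alternatives were TMM scaling, DESeq2 1.42.0, limma 3.58.1 on log2(CPM + 0.5), low-count filters, no replicate block, Y440X alone, other library sizes and each library left out.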

Additional observations from a re-analysis of the deposited data

Results flagged for a closer look

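For 58 of the named genes the difference between GFP-positive and GFP-negative cells was not the same in Y440X as in WT, by the interaction of the edgeR fit. All were listed for a difference between genotypes on these libraries, so that a pass is in part set by the listing, and no explanation was tested. Values are Y440X minus WT on the log2 scale, positive where GFP-positive cells were relatively higher in Y440X.

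Among cartilage and skeletal genes, the interaction was 1.13 for Sox9, -0.92 for Col2a1, -0.74 for Comp, 2.21 for Mia, 1.10 for Acan, -1.31 for Col11a1, -1.28 for Col9a1, -0.80 for Col9a2, 2.59 for Alpl, -1.78 for Slc8a3, 1.29 for Gdf5, 2.10 for Prg4 and -0.77 for Nog. Acan and Mia thus had positive values and the collagens negative ones. Among endothelial and macrophage genes it was 2.01 for Pecam1, 1.81 for Cdh5, 1.24 for Tek, 1.92 for Adgrf5, 3.05 for Esm1, 1.98 for Stab1, 2.41 for Mrc1 and 1.93 for Csf1r, all positive.

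In the other gene groups it was 1.21 for Mylpf, -2.10 for Erbb3, -0.83 for Lama5, 1.15 for Epcam, 1.43 for Fzd4, -1.36 for Lef1, -1.53 for Fzd9, -1.53 for Rspo1, 1.10 for Hspb1, 1.53 for Ebf3, 0.79 for Crabp1, -1.24 for Cspg4, 1.02 for Ebf1, -0.77 for Cyp26b1, 2.29 for Meox1 and -1.64 for Alas2. Of the genes named for the interaction itself it was -5.07 for Fxyd3, -4.02 for Klk10, -3.59 for Anxa8 and -3.25 for Upk1b. Of the genes called with opposite signs it was 3.98 for Tnfsf11, 3.55 for Il1rn, 3.75 for Myom2, -3.81 for Myt1, 3.38 for Dnah5, 2.24 for B130024G19Rik and -3.16 for Otogl.

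For genes with 0 to 3 counts in a fraction the fitted size depends on the prior count, and only the adjusted p of edgeR's interaction is given. Where GFP-positive cells were relatively lower in Y440X it was 0.00360 for S100a8, 0.0314 for Ngp, 0.0270 for Cacna1s and 7.4e-04 for Xlr3c. Where they were relatively higher it was 0.00193 for Ccl12, 0.0110 for Cxcl3, 6.8e-04 for Cmah, 0.0298 for Tlr8, 0.00286 for Zfp366 and 3.4e-04 for Fam167b.

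Leaving out 1 library ended the interaction call of several of these genes. For Comp and Tlr8 it was lost without any 1 of the 8 libraries (adjusted p = 0.0872 to 0.208 for Comp and 0.0646 to 0.131 for Tlr8). The call of Acan was lost without either Y440X hindlimb or either WT forelimb library (adjusted p = 0.0762 to 0.196), as were those of Hspb1 (0.0799 to 0.0836) and Crabp1 (0.163 to 0.223). For Col11a1 it was lost without either Y440X hindlimb or the WT GFP-negative forelimb library (adjusted p = 0.0654 to 0.0688), and for Ebf1 without the Y440X GFP-positive hindlimb or either WT forelimb library (adjusted p = 0.051 to 0.113). Nog lost it without either Y440X forelimb, either WT forelimb or the WT GFP-negative hindlimb library (adjusted p = 0.0513 to 0.256). Lama5 (adjusted p = 0.108 to 0.156) and Rspo1 (0.108 to 0.134) lost it without either Y440X forelimb or either WT hindlimb library. Cyp26b1 (adjusted p = 0.0534 to 0.138) and Ngp (0.106 to 0.165) lost it without either Y440X hindlimb or any WT library. Cacna1s lost it without either Y440X hindlimb, the Y440X GFP-negative forelimb or either WT hindlimb library (adjusted p = 0.0504 to 0.200) and with DESeq2 (0.0716). Ccl12 lost it without either Y440X forelimb library (adjusted p = 0.324 and 0.328), and Cxcl3 without either Y440X hindlimb library (adjusted p = 0.210). Without the replicate block the interaction also missed the threshold for Comp (adjusted p = 0.258), Acan (0.190), Crabp1 (0.0697) and Cxcl3 (0.0855). With limma it missed the threshold for Acan (0.66, adjusted p = 0.053).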

How the results depend on the processing

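The Y440X difference between fractions kept its count of calls within 1.5 times under every alternative run, except with a mean of at least 1 CPM required. Of the 480 genes then tested, 193 were called higher and 198 lower, so the excess of lower calls was nearly gone. The median fold change of the 480 was 0.013, against -0.25 over all 739 genes. The interaction was called higher for 150 genes under TMM scaling. The fit without a replicate block called 212 genes higher and 294 lower in Y440X, and DESeq2 called 223 and 296. With 1 library left out, the other library of its pool adds nothing and the lone pool is assumed to vary like the others. Then 180 to 222 genes were called higher and 254 to 316 lower in Y440X, and the interaction was called higher for 191 to 245 and lower for 105 to 127. Of the named values, 3 turned round: Erbb3 in Y440X to 0.12 without the Y440X GFP-positive or GFP-negative forelimb library (its range with 1 library left out was -1.34 to 0.12), Epcam in Y440X to -0.083 under TMM scaling, and the interaction of Cacna1s to 0.67 with limma. The cause was not tested. Among the interactions, that of Col2a1 missed the threshold without either Y440X hindlimb library (-0.65, adjusted p = 0.23), without either WT forelimb library (-0.73, adjusted p = 0.112 and 0.177), with a mean of at least 1 CPM required (adjusted p = 0.0815) and without the replicate block (-0.94, adjusted p = 0.061). Those of Sox9 (0.51), Acan (0.49), Gdf5 (0.67), Epcam (0.53), Hspb1 (0.48), Crabp1 (0.17) and Ebf1 (0.39) missed it under TMM scaling. Without the block 9 calls of named genes were lost in all. Depth limits the leukocyte and neutrophil genes, many of which have under 3 counts in GFP-positive cells.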

Other observations

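Ddx3y and Uty, which lie on the Y chromosome and are carried by male fetuses only, serve as a measure of the share of male cells in a pool. Ddx3y had 25.7 and 25.6 CPM in Y440X GFP-positive cells, against 21.1 and 19.2 CPM in Y440X GFP-negative cells, and was not called between the fractions (0.35, adjusted p = 0.094). Uty had 5.87 and 6.62 CPM in Y440X GFP-positive cells, against 5.53 and 6.68 CPM in Y440X GFP-negative cells (0.04, adjusted p = 0.89). In WT, Ddx3y had 68.3 and 59.7 CPM in GFP-positive cells, against 75.4 and 73.5 CPM in GFP-negative cells. Both fractions of a genotype had like levels, and both Y440X fractions were below both WT fractions. The sex makeup of the pools thus moves with genotype, and its part in the comparisons with WT was not tested.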
